A study of Mus musculus with 4 samples.

Results

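Gdap1, the gene of the outer mitochondrial membrane protein GDAP1, was examined together with 8 other genes: its namesake Gdap2, the fusion genes Mfn1, Mfn2 and Opa1, the fission genes Dnm1l, Fis1 and Mff, and the cristae gene Immt. The 9 genes were picked by symbol among the 11598 genes of the deposited ribosome profiling table, and all 9 passed the filter on low values (1 FPKM or more on average over the libraries). The set was chosen by the change of Gdap1 between the genotypes, with the levels of the others known as well, so the contrast between genotypes is given for these 9 genes as a description, without a test.

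Mitochondria fuse and divide continually. Mitofusins join the outer membranes and OPA1 the inner ones, whereas division is driven by the dynamin-related protein DRP1, which adaptors such as MFF and FIS1 recruit from the cytosol to the outer membrane. GDAP1 is a relative of glutathione S-transferases that is best known from nerve cells, where its mutation causes an inherited neuropathy and its excess fragments the mitochondrial network. In male germ cells mitochondria change shape and cristae structure as spermatogonia enter meiosis.

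Ribosome profiling (Ribo-seq) sequences the mRNA fragments that ribosomes shield from nuclease (ribosome-protected fragments, RPFs). Leptotene and zygotene spermatocytes, the first meiotic prophase cells, were sorted from testes of mice at 12 days postpartum (dpp). Eef1g encodes a subunit of translation elongation factor eEF1. The Eef1g-cKO mice carried a floxed Eef1g allele on a C57BL/6J background that was deleted in male germ cells by Stra8-GFPCre, which acts from spermatogonia onward. The controls were littermates that the labels call wild type, and whether they carried the Cre or a floxed allele is not given in the sources used here. Each genotype had 2 libraries, described as independent biological replicates, and with 2 against 2 an exact permutation test cannot give a two-sided p below 0.333.

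The libraries differed in depth. The control libraries held 2479504 and 1384282 reads counted on genes, and the Eef1g-cKO libraries 223906 and 407979, so that the median gene had 60 and 34 reads in the controls and 5 and 8 in the Eef1g-cKO libraries. Eef1g itself, the check of the labels, had 107 and 58 reads in the controls and 0 and 4 in the Eef1g-cKO libraries. Markers of leptotene and zygotene cells were present in every group, and 4 of 6 passed the test as higher in Eef1g-cKO and 1 (Stra8) as lower. All 5 spermatogonial markers had a negative log2 fold change, 4 of them past the test. Their summed level was 1355 and 1588 FPKM in the controls against 220 and 207 FPKM in the Eef1g-cKO libraries. Uchl1 gave most of it, at 1011 and 1138 FPKM in the controls against 140 and 120 FPKM in Eef1g-cKO. The summed level of 5 Sertoli markers was 491 and 109 FPKM in the controls against 107 and 70.8 FPKM in the Eef1g-cKO libraries. Most of this sum was 1 marker, Clu, at 458 and 96.3 FPKM in the controls against 91.4 and 65.1 FPKM in Eef1g-cKO. All 5 Sertoli markers had a negative log2 fold change. No marker on the lists for Sertoli cells, pachytene spermatocytes, spermatids, Leydig cells or peritubular cells passed (limma, adjusted p), although 1 Sertoli and 1 pachytene marker were lower at an unadjusted p under 0.05 with a log2 fold change beyond 1 in size and edgeR called 1 Sertoli marker lower. Of the 3 pachytene markers tested, 2 had both Eef1g-cKO libraries above both controls and 1 had both below. Among all tested genes these shares were 24.6% and 37.7%. The summed level of the pachytene list was 190 and 139 FPKM in the controls against 250 and 304 FPKM in the Eef1g-cKO libraries. Hspa2 alone gave most of it, at 163 and 128 FPKM in the controls against 225 and 277 FPKM in Eef1g-cKO. Piwil1, the pachytene marker with both libraries below, measured 8.18 and 2.93 FPKM in the controls against 1.13 and 1.24 FPKM in Eef1g-cKO. The part of depth and of these other cells in the results below was not tested, and in such bulk samples fewer cells of a type and less RNA per cell cannot be told apart.

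The start of the coding sequence is shown for the genes that stood highest and lowest in the contrast, because the GC content of last codon positions is compared with the change further on. Each run holds the first 90 coding bases, 5′ to 3′, with capitals for last codon positions that are G or C (build GRCm38, GENCODE M21 coding sequence). In Gdap1 25 of these 30 codons end in G or C (chr1:17145472-17145561, plus strand). In Mff 10 of 30 do (chr1:82729256-82729345, plus strand), and in Fis1 18 of 30 (plus strand, from the exon parts chr5:136962184-136962228 and chr5:136962999-136963043).
Gdap1: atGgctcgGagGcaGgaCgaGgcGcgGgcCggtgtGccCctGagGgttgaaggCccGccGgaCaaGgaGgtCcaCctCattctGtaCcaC
Mff: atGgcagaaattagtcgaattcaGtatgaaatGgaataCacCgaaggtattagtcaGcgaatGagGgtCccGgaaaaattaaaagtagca
Fis1: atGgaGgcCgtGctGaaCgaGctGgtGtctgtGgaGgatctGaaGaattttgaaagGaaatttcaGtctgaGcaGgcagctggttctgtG

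Gdap1 lies on the plus strand of chromosome 1 (17145373 to 17164271, GRCm38.p6) and overlaps no other RefSeq gene. Its RPF abundance was 2.77 and 1.65 FPKM in the 2 control libraries, from 27 and 9 reads. In the Eef1g-cKO libraries it was 83.9 and 54.8 FPKM, from 74 and 88 reads. Both Eef1g-cKO libraries thus lay far above both controls, and they held more Gdap1 reads than the controls although they were much shallower. The mean was 2.21 ± 0.788 FPKM in controls (SD, n = 2) and 69.4 ± 20.6 FPKM in Eef1g-cKO (SD, n = 2), a 31.4-fold difference of means. Between single libraries the fold ranged from 19.8 (lowest Eef1g-cKO over highest control) to 50.8 (highest over lowest). On the log2(FPKM + 1) scale the fold change was 4.45 (SE 0.38), and only 2 of 10475 tested genes had a larger one. The 95% Poisson intervals, which cover counting error only, reached up to 4.02 FPKM in the controls and down to 43.9 FPKM in the Eef1g-cKO libraries.

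Gdap2 shares the name of Gdap1 but encodes a protein with a macro domain rather than a glutathione S-transferase fold. Its abundance was 15.7 and 13.3 FPKM in controls and 15.2 and 16.7 FPKM in Eef1g-cKO. The genotypes overlapped, and the log2 fold change was 0.13 (SE 0.30). In the controls Gdap2 stood above Gdap1 in both libraries, and in Eef1g-cKO it stood below Gdap1 in both.

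Among the fusion genes, Mfn1 encodes a mitofusin of the outer membrane. It measured 40.2 and 37.6 FPKM in controls against 54.2 and 71.4 FPKM in Eef1g-cKO. Both Eef1g-cKO libraries were above both controls, with a log2 fold change of 0.66 (SE 0.24). The other mitofusin gene, Mfn2, measured 14.8 and 20.5 FPKM in controls against 15.9 and 22.1 FPKM in Eef1g-cKO. Here replicate 2 was the higher library in each genotype, the genotypes overlapped, and the log2 fold change was 0.10 (SE 0.33). Opa1, the inner membrane fusion gene, measured 17.2 and 15.8 FPKM in controls against 21.6 and 20.4 FPKM in Eef1g-cKO. The Eef1g-cKO libraries did not overlap the controls, but the difference was small, with a log2 fold change of 0.33 (SE 0.27), and the 95% counting intervals of all 4 libraries overlapped.

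Among the fission genes, Dnm1l encodes DRP1, the motor of division. It measured 24.5 and 27.4 FPKM in controls and 28.2 and 25.3 FPKM in Eef1g-cKO. The libraries of the genotypes interleaved, and the log2 fold change was 0.04 (SE 0.25). Mff, a receptor for DRP1, measured 19.7 and 19.8 FPKM in controls, from 91 and 51 reads, against 91.0 and 48.6 FPKM in Eef1g-cKO, from 38 and 37 reads. Both Eef1g-cKO libraries were above both controls, and they differed from each other more than the controls did. The mean was 19.7 ± 0.0536 FPKM in controls (SD, n = 2) and 69.8 ± 30.0 FPKM in Eef1g-cKO (SD, n = 2), a 3.54-fold difference, with a log2 fold change of 1.71 (SE 0.34). Mff overlaps the RefSeq genes C430014B12Rik and Gm39668, as Mfn1 overlaps Gnb4, Gdap2 overlaps Wdr3 and Immt overlaps Gm17825, and whether counting used strand is not given in the sources used here. Fis1, the other receptor, measured 58.6 and 78.7 FPKM in controls against 48.6 and 48.9 FPKM in Eef1g-cKO. It was the 1 gene of the 9 whose Eef1g-cKO libraries both lay below the controls, with a log2 fold change of -0.47 (SE 0.24). The Eef1g-cKO values rested on 12 and 22 reads, and their counting intervals overlapped those of the controls.

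Immt encodes mitofilin, the core of the MICOS complex that shapes cristae junctions. It measured 68.5 and 92.6 FPKM in controls and 87.3 and 87.0 FPKM in Eef1g-cKO. The controls enclosed the Eef1g-cKO libraries, and the log2 fold change was 0.13 (SE 0.23).

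**Figure D1:**
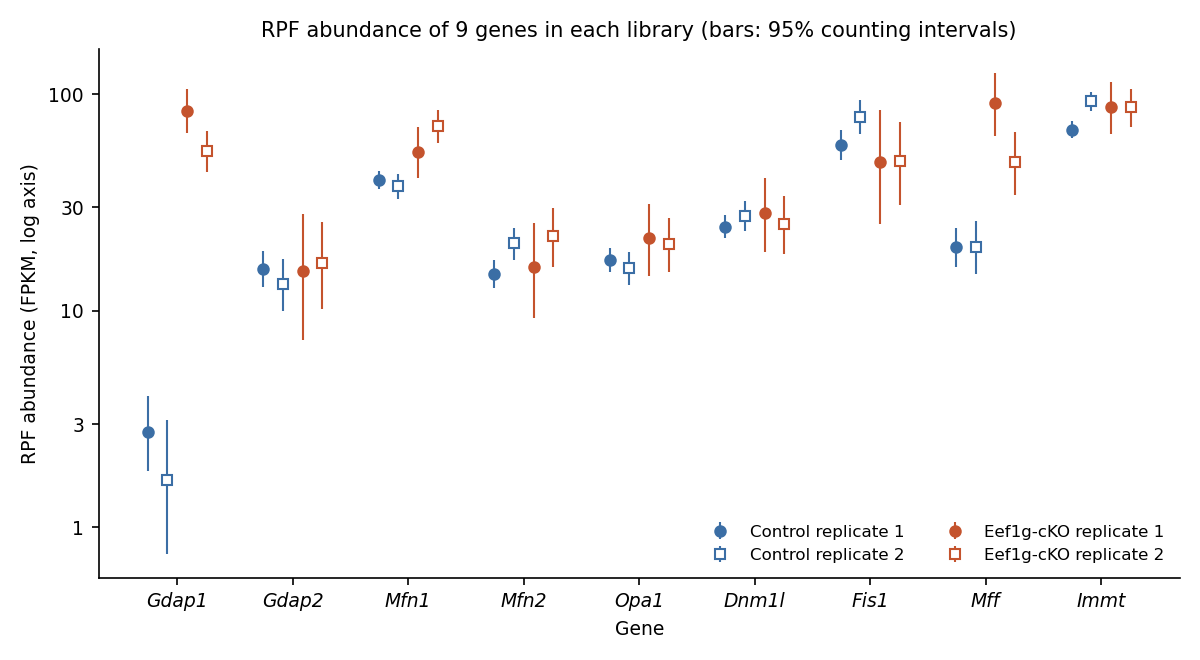
RPF abundance (FPKM, log axis) of the 9 genes in each of the 4 libraries, blue for control and orange for Eef1g-cKO, filled circles for replicate 1 and open squares for replicate 2, with exact Poisson 95% intervals that cover counting error only. Gdap1 moves from 2.77 and 1.65 FPKM to 83.9 and 54.8 FPKM, Mff is higher by less, both Mfn1 libraries of Eef1g-cKO lie above the controls at 54.2 and 71.4 FPKM, and Gdap2, Mfn2, Dnm1l and Immt overlap between the genotypes.

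Of the 9 genes, 4 (Gdap1, Mff, Mfn1 and Opa1) had both Eef1g-cKO libraries above both controls, against 24.6% of all tested genes. Fis1 had both below, against 37.7% of all tested genes, and the other 4 overlapped. By the rule used for calls over all genes (limma on log2(FPKM + 1), a log2 fold change beyond 1 in size and an adjusted p under 0.05), 2 of the 9, Gdap1 and Mff, lay among the increased genes, a class that held 2.87% of all tested genes (301). None lay among the decreased genes, which made up 4.97% (521). These counts come from the contrast used to choose the set, and nothing is read from them. The median log2 fold change was 0.13 over the 9 genes and -0.23 over all 10475 tested genes. Centring each library on its median moved the median of all genes to -0.02 and turned the split of calls to 521 increased and 383 decreased. Relative to the median of all genes, the point values of Mfn2, Dnm1l, Gdap2 and Immt were thus above and that of Fis1 below. The SEs were 0.23 to 0.33 for the first 4, which overlapped between the genotypes, and 0.24 for Fis1. No direction is read from these positions.

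The order of the levels per kilobase of gene length differed between the genotypes. In controls it ran, by mean FPKM, from Immt (80.6) and Fis1 (68.6) through Mfn1 (38.9), Dnm1l (25.9), Mff (19.7), Mfn2 (17.6), Opa1 (16.5) and Gdap2 (14.5) to Gdap1 (2.21). The libraries of Immt and Fis1 overlapped, as did those of Mff and Mfn2 and of Mfn2 and Opa1, whereas the other neighbours were separate by their library values. The 95% counting intervals of Dnm1l and Mff, and of Opa1 and Gdap2, still overlapped. In Eef1g-cKO the order was Immt (87.2), Mff (69.8), Gdap1 (69.4), Mfn1 (62.8), Fis1 (48.8), Dnm1l (26.7), Opa1 (21.0), Mfn2 (19.0) and Gdap2 (16.0). There the libraries of Immt overlapped those of Mff, those of Mff overlapped Gdap1 and those of Gdap1 overlapped Mfn1, as did Opa1 with Mfn2 and Mfn2 with Gdap2. By their library values Mfn1 and Fis1, Fis1 and Dnm1l, and Dnm1l and Opa1 were separate, but the 95% counting intervals of each of these pairs overlapped. Gdap1 made up 0.776% of the summed mean FPKM of the 9 genes in controls and 16.5% in Eef1g-cKO.

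FPKM divides by the whole deposited gene length, and ribosomes protect mainly coding sequence. The coding sequence is 27.3% of the deposited length in Gdap1 (1074 of 3937 bases), the lowest share of the 9, and 82.3% in Immt (2271 of 2761 bases), the highest. When the same reads were scaled to depth as for FPKM but divided by coding length (coding FPKM), Gdap1 stood at 10.1 and 6.05 in controls and at 308 and 201 in Eef1g-cKO. By this measure it was still the lowest of the 9 in controls but the highest in Eef1g-cKO, with a mean of 254 ± 75.6 (SD, n = 2). The next was Mff, with 137 ± 58.9 (SD, n = 2), whose libraries at 179 and 95.7 stood below both Gdap1 libraries. Mff rested on 38 and 37 reads there, and counting intervals were not computed on this scale. Whether counting error separates Gdap1 from Mff in this order is therefore not shown. Fis1, the shortest gene, led in controls with a coding FPKM of 142 and 190. These values assume that all counted reads fell in the coding sequence, which the table does not show.

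The genes also differed in codon composition, a property that the choice of the set did not use. The share of codons ending in G or C had a median of 60.6% over the 11200 genes of the table with a coding sequence in the annotation. It was below that median in 7 of the 9 genes, from 38.3% in Mff and 39.4% in Dnm1l to 51.7% in Gdap1, and above it in Fis1 (67.8%) and Mfn2 (69.7%). In the opening of Gdap1 printed above 83.3% of the codons ended in G or C, against 51.7% over its whole coding sequence. Openings were computed for the 3 printed genes only, so how usual such a difference is cannot be said. Over the 10118 tested genes with such a coding sequence, split into 10 groups of nearly equal size by this share, the median log2 fold change was 0.21 in the group with the lowest share and -0.72 in that with the highest. Mff and Dnm1l both belonged to group 1, the lowest, with log2 fold changes of 1.71 and 0.04. Gdap1, Gdap2 and Mfn1 shared group 3, whose median was 0.01, with log2 fold changes of 4.45, 0.13 and 0.66. Gdap1 was chosen by this change, so its place within the group is a description only. Fis1, in group 8 with a median of -0.57, lay at -0.47. Whether composition has a part in the change of any of the 9 genes was not tested.

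**Figure D2:**
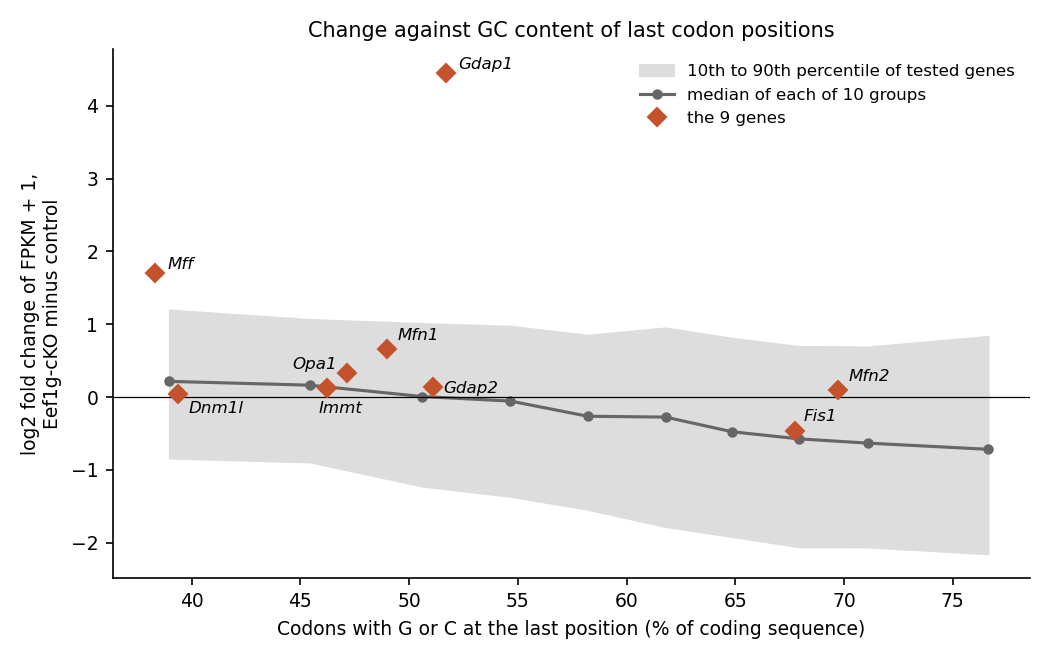
Log2 fold change of FPKM + 1 (Eef1g-cKO minus control) against the percentage of codons ending in G or C. Grey points are the medians of 10 groups of nearly equal size of the 10118 tested genes with a coding sequence, placed at each group's median percentage, the band spans the 10th to 90th percentile, and orange diamonds are the 9 genes. The medians fall from 0.21 to -0.72, Gdap1 and Mff lie above the band, and the other 7 genes lie inside it. The 9 genes were chosen with these changes known.

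The genes most like Gdap1 over the 4 libraries were found by the Euclidean distance between log2(FPKM + 1) profiles, each centred on its own mean, among 6630 genes that averaged 5 FPKM or more and had 50 reads or more in all. The nearest was Herpud1, a gene of endoplasmic reticulum protein quality control, at a distance of 0.779, where the median distance of all candidates was 4.60. Herpud1 measured 4.53 and 5.41 FPKM in controls against 103 and 70.7 FPKM in Eef1g-cKO. In Eef1g-cKO replicate 1 was the higher library of Herpud1, as of Gdap1, while in the controls replicate 2 was the higher one of Herpud1 and replicate 1 that of Gdap1. The others were the olfactory receptor gene Olfr1357 (0.967), the linker histone gene Hist1h1e (1.27), the Kelch adaptor gene Klhl3 (1.34) and 4930513N10Rik (1.45). Hist1h1e was much more abundant than Gdap1, at 180 and 138 FPKM in controls and 1479 and 1617 FPKM in Eef1g-cKO, whereas Olfr1357 rested on 10 and 3 reads in controls. None of the 5 belongs to the mitochondrial lists used here, and the likeness, over 4 libraries of 2 genotypes, is mainly a shared size and direction of the difference.

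**Figure D3:**
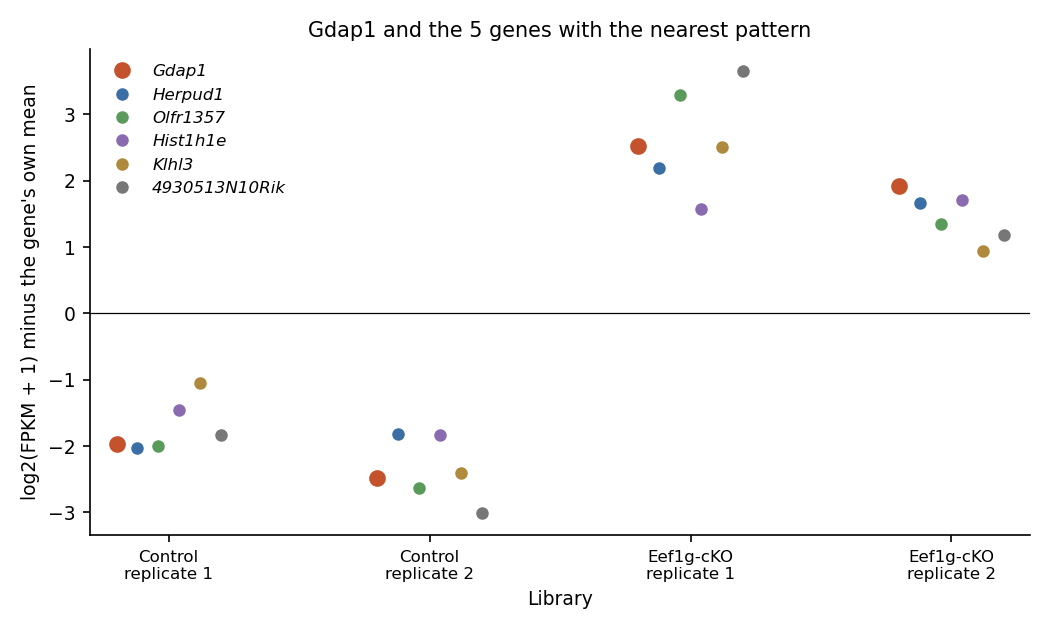
Centred log2(FPKM + 1) of Gdap1 and of the 5 genes nearest to it in each of the 4 libraries, every gene's own mean set to 0 and points of one library spread sideways to keep them apart. All 6 genes are below 0 in both controls and above 0 in both Eef1g-cKO libraries.

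The wider machinery of mitochondrial dynamics, with mitophagy and protein import beside it, was taken from lists of 78 further genes, of which 72 were in the table and 71 were tested. These lists were drawn up with earlier results of these data known. Here the fit over all genes gives tests: 2 genes rose (Spg7 and Tomm70a), 1 fell (Akap1) and 68 did not pass, where 2.87% of all tested genes rose and 4.97% fell. In 19 of the 71 (26.8%) both Eef1g-cKO libraries were above both controls and in 24 (33.8%) both were below, close to the shares of all tested genes, and the median log2 fold change was -0.21. All 3 calls were lost when either control library was left out, when no gene passed in the whole table (limma, adjusted p). By the same rule with an unadjusted p, 3 of the 71 were then higher and 7 lower without control replicate 1, and 3 higher and 5 lower without control replicate 2.

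Spg7 encodes paraplegin, a subunit of the inner membrane m-AAA protease. It measured 27.1 and 17.2 FPKM in controls against 73.3 and 71.9 FPKM in Eef1g-cKO. The groups were well separated, and the log2 fold change was 1.70 (SE 0.29, limma adjusted p = 0.0352). Tomm70a, which encodes a receptor for protein import at the outer membrane, measured 32.6 and 29.6 FPKM in controls against 74.5 and 79.8 FPKM in Eef1g-cKO. Its libraries agreed closely within each genotype, and the log2 fold change was 1.28 (SE 0.22, limma adjusted p = 0.0352). Akap1, whose product anchors protein kinase A at the outer membrane where the kinase acts on DRP1, measured 20.4 and 23.9 FPKM in controls against 5.55 and 6.70 FPKM in Eef1g-cKO. Both Eef1g-cKO libraries were low, resting on 5 and 11 reads, and the log2 fold change was -1.70 (SE 0.33, limma adjusted p = 0.0405).

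By list, fission adaptors and effectors had 0 rises and 1 fall (Akap1) among 14 tested genes (limma, adjusted p), with a median log2 fold change of -0.16. With an unadjusted p 1 was higher and 3 were lower, and 0 were higher and 2 and 1 lower by edgeR and by DESeq2. Dnm2, the classical dynamin that was the most abundant of them, had a mean of 67.8 FPKM in controls and 55.8 FPKM in Eef1g-cKO (log2 fold change -0.27, SE 0.25, limma adjusted p = 0.497). Mief1 and Mief2, which encode further DRP1 receptors beside MFF and FIS1, were named after their values were seen. Mief2 had 50 and 20 reads in controls and 0 and 1 reads in Eef1g-cKO, and its difference did not pass (limma adjusted p = 0.0542), although edgeR called it lower. Mief1, with means of 5.17 FPKM in controls and 2.56 FPKM in Eef1g-cKO, did not pass either (log2 fold change -0.82, SE 0.49, limma adjusted p = 0.300).

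Fusion helpers and OPA1 processing genes had 1 rise (Spg7) and 0 falls among 14 (limma, adjusted p), with a median of -0.47. With an unadjusted p 1 was higher and 4 were lower, edgeR called 1 higher and 1 lower, and DESeq2 called 1 higher and 0 lower. Phb2, a prohibitin of the inner membrane and the most abundant of them, had means of 82.0 and 67.2 FPKM in controls and Eef1g-cKO (log2 fold change -0.32, SE 0.27, limma adjusted p = 0.463). No gene of the MICOS and membrane bridge list, to which Immt is related, passed among 10 (limma, adjusted p), and the median was -0.15. By the same rule with an unadjusted p, and by edgeR and DESeq2 as well, 1 gene was lower (Mtx1, named after its values were seen). Micos13, listed in the table as 2410015M20Rik, was the most abundant, with means of 281 and 152 FPKM in controls and Eef1g-cKO (log2 fold change -0.83, SE 0.31, limma adjusted p = 0.138). Both of its Eef1g-cKO libraries were below both controls, while Immt overlapped.

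None of the 8 tested transport genes passed (limma, adjusted p), nor did any by edgeR or DESeq2, while 1 (Rhot2, named after its values were seen) was lower and 0 were higher by the same rule with an unadjusted p, and the median was 0.04. Kifbp, the gene of a kinesin-binding protein (listed as 2510003E04Rik), was the most abundant, with means of 42.1 and 75.5 FPKM in controls and Eef1g-cKO (log2 fold change 0.81, SE 0.25, limma unadjusted p = 0.0195, adjusted p = 0.0993). None of the 10 mitophagy genes passed (limma, adjusted p). By the same rule with an unadjusted p, 3 were higher and 0 lower, while edgeR called 2 higher (Tbk1 and Usp30) and 1 lower (Fkbp8) and DESeq2 called 1 higher (Tbk1), genes that other than Fkbp8 were named after their values were seen. Their median was 0.54, and 6 of them had both Eef1g-cKO libraries above both controls while 0 had both below. Among all tested genes 24.6% were above and 37.7% below. The counts above and below were 4 and 5 for fission adaptors, 3 and 6 for fusion helpers and 2 and 5 for the MICOS list. They were 3 and 1 for transport and 1 and 7 for import. Fkbp8, an autophagy receptor gene and the most abundant of the mitophagy list, was uneven in the controls at 47.3 and 203 FPKM, against 37.7 and 53.1 FPKM in Eef1g-cKO (limma adjusted p = 0.295). Import genes had 1 rise (Tomm70a) and 0 falls among 15 (limma, adjusted p), with a median of -0.32. With an unadjusted p 1 was higher and 1 lower, and edgeR and DESeq2 each called 1 higher and 0 lower. Tomm34, a cochaperone gene and the most abundant of them, had means of 130 and 85.1 FPKM in controls and Eef1g-cKO (log2 fold change -0.60, SE 0.21, limma adjusted p = 0.120).

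**Figure D4:**
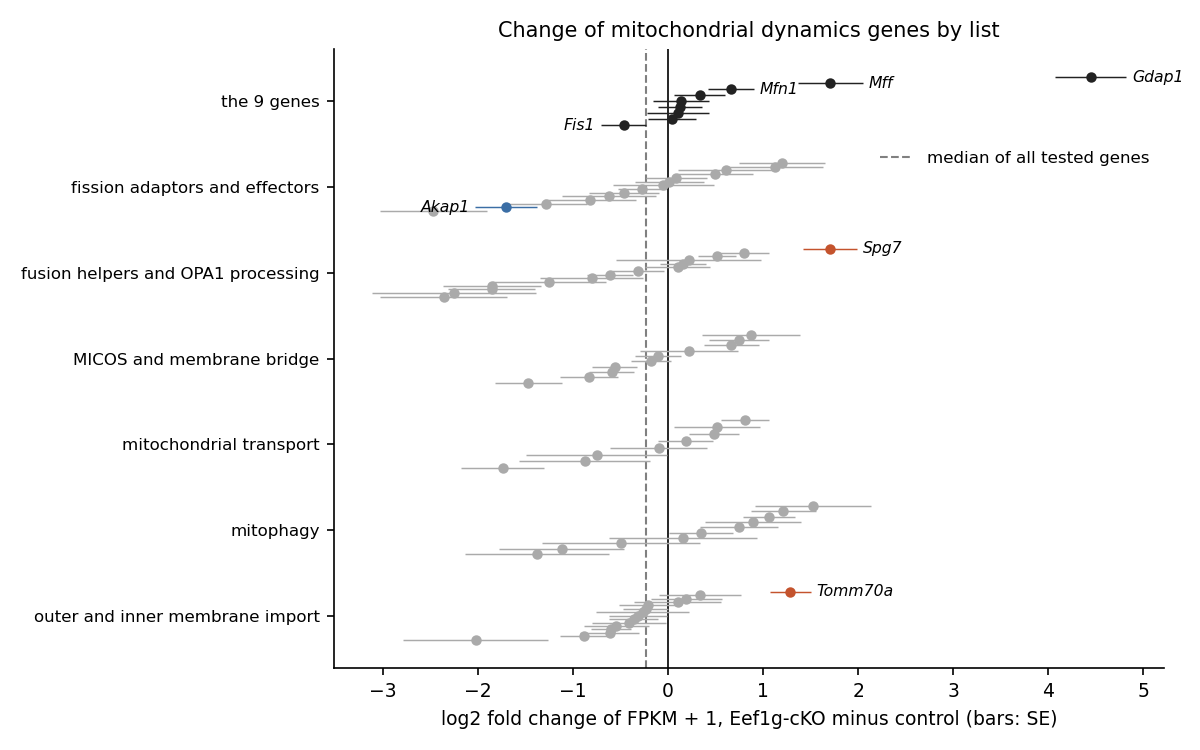
Log2 fold change of FPKM + 1 (Eef1g-cKO minus control) with its SE for the 9 genes, in black, and for 71 further genes by list, orange for the 2 that rose and blue for the 1 that fell by the adjusted test, grey for the rest. The dashed line is the median of all tested genes (-0.23). Gdap1, at 4.45, stands to the right of every other gene shown.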

How the data were processed

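The series holds 4 Ribo-seq libraries, 2 per genotype. The authors trimmed adapters, filtered and aligned the reads and analysed them with RiboMiner. The submitters' processing notes name cutadapt, Bowtie and STAR and the builds mm10 and hg38, with no roles or versions. The counting tool, annotation and any use of strand are not given in the sources used here. The deposited table gives, per gene and library, FPKM and a normalized count signal (reads divided by a size factor), as well as the authors' own fold changes, standard errors, test scores and p-values, which were not used.

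The deposited FPKM values were tested as log2(FPKM + 1) over 10475 genes that averaged 1 FPKM or more, using limma 3.58.1 (lmFit, eBayes with trend) in R 4.3.3, with genotype as the term and Benjamini-Hochberg adjustment. A gene was called at an adjusted p under 0.05 with an absolute log2 fold change above 1. The deposited signal was a whole multiple of its lowest nonzero value in 100% of entries (tolerance 1e-06), which gave whole reads. On these, edgeR 4.0.16 called 705 genes higher and 904 lower, and DESeq2 1.42.0 called 502 higher and 451 lower. The depth sets the precision: 1 read on a gene of 1 kb is worth 0.403 and 0.722 FPKM in the controls and 4.47 and 2.45 FPKM in the Eef1g-cKO libraries. RPF reads carry no stated molecular identifiers, so counting intervals cover counting error only. The scripts were tested on simulated data.

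Gene coordinates are from RefSeq (GRCm38.p6), and coding length and codon composition from GENCODE M21, taking the longest coding sequence of a gene. List genes absent under their current symbol were matched through older symbols. The members and lists were chosen with earlier results of these data known. Named genes are the 9 members, every further gene of the mitochondrial lists that limma called, the most abundant gene of each of these lists, the 5 genes nearest to Gdap1, and Eef1g. Stra8, Clu, Uchl1, Hspa2, Piwil1, Mief1, Mief2, Mtx1, Rhot2, Tbk1 and Usp30 were named in addition, after their values were seen. Not every gene counted in a list is reported here by name. Markers of macrophages and of red blood cells were not among the genes of the table. Pseudocounts of 0.1 and 5, no filter, a minimum of 5 FPKM, median centring, a prior variance without a trend, a replicate block, thinned reads, edgeR, DESeq2, an unadjusted p and leaving out each library were the alternatives.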

Additional observations from a re-analysis of the deposited data

How the results depend on the processing

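The log2 fold change of Gdap1 was 4.45 and stayed positive in each of 14 alternatives. It was 4.92 with a pseudocount of 0.1, 3.34 with a pseudocount of 5, 5.12 after thinning all libraries to the smallest, 4.93 with edgeR and 4.95 with DESeq2, and it ranged from 4.14 to 4.75 when single libraries were left out. Its rank by mean among the 9 genes in Eef1g-cKO was 3 per kilobase of gene length and 1 per kilobase of coding sequence, with counting error not weighed. Mff (1.26 to 2.15), Mfn1 (0.47 to 0.88), Opa1 (0.03 to 0.55) and Gdap2 (0.01 to 0.35) stayed positive and Fis1 (-0.68 to -0.25) negative in the same alternatives. Dnm1l (-0.10 to 0.26), Immt (-0.09 to 0.34) and Mfn2 (-0.20 to 0.33) took both signs. The alternatives refit the same reads, and the 9 genes were chosen with this contrast known. A kept sign, that of Gdap1 included, is thus a description and no support for the change.

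The counts of calls moved more. Over all genes, 301 higher and 521 lower became 29 and 47 with a pseudocount of 0.1, 0 and 0 with a prior variance without a trend and 0 and 0 after thinning (limma, where 793 and 1811, and 695 and 1182, passed with an unadjusted p and the same limit on the fold change). They became 521 and 383 after median centring, 705 and 904 with edgeR, 502 and 451 with DESeq2 and 767 and 1705 at an unadjusted p. Leaving out single libraries gave 0 to 537 higher and 0 to 1432 lower: 0 and 0 without either control library, 321 and 1086 without Eef1g-cKO replicate 1, and 537 and 1432 without Eef1g-cKO replicate 2. Of the 71 further mitochondrial genes, 2 higher and 1 lower became 0 and 0 with a pseudocount of 0.1, without a trend and after thinning (5 and 9, 7 and 9, and 3 and 6 passed unadjusted), 2 and 4 with a pseudocount of 5, 2 and 0 without a filter, 2 and 3 with a minimum of 5 FPKM, 4 and 5 with edgeR, 3 and 2 with DESeq2, 6 and 10 at an unadjusted p, and 0 to 3 and 0 to 7 when single libraries were left out. Spg7, Tomm70a and Akap1 lost their calls with a pseudocount of 0.1, without a trend, after thinning and without either control library, Akap1 also without a filter, and none changed direction. The cause was not tested.

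With the replicate number as a replicate block, 424 genes were higher and 822 lower, and 2 and 5 of the 71. Same-numbered libraries did not deviate together (r = -0.008 across genes), so the numbers are not taken as pairs. A lone library of a genotype was assumed to vary like the others. Depth limits the low genes: the median gene had 5 and 8 reads in the Eef1g-cKO libraries.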
